A study of Mus musculus with 18 samples.

Results

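Splenic neutrophils of 26-week-old mice were compared with those of 14-week-old mice, across every gene with enough reads to test. The comparison holds 12 of the 18 libraries of the series, 6 for each age, each library being 1 mouse. All animals were untreated females of NZBWF1/J, an F1 hybrid strain that spontaneously develops a lupus-like autoimmune disease as it ages, and the labels name no transgene or agent in any group. Age and any stage of that disease cannot be told apart here. Cells were taken from total splenocytes by sorting for live single cells (DAPI-) that were Ly6G+, CD11b+, Ly6C int and Ly6B+. The other 6 libraries, from 20-week-old mice, entered the fit only to estimate the spread between mice.

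Neutrophils are short-lived phagocytes that leave the bone marrow already loaded with granules. Their precursors fill primary, secondary and tertiary granules in that order, and the mature cell adds secretory vesicles whose membranes carry receptors for adhesion and chemotaxis. Ribosomes and mitochondria are sparse in the mature cell, which relies largely on glycolysis, and in lupus neutrophils are studied for their release of extracellular traps and their response to type I interferon.

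Genes for the proteins of the cytosolic ribosome moved together between the ages: 49 of the 75 tested were called higher at 26 weeks and 0 lower, against 5.45% of all tested genes called higher. Mammalian ribosomal protein genes are known for transcription starts that lie in a run of pyrimidines, so the bases around the start are shown for 6 of them. They are 6 of the 12 genes called higher that hold CTTTC or CTTTT on the gene's own strand within 15 bases of the start, those with the smallest p. Capitals mark each match, and each line runs from 15 bases before to 15 bases after the start (RefSeq, GRCm38.p6).
Rps27: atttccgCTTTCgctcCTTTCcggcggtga
Rpl13: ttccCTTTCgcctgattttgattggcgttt
Rplp2: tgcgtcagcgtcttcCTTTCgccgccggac
Rpl7a: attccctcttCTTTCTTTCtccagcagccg
Fau: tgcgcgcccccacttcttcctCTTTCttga
Rps6: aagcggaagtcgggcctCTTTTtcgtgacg
These windows lie at chr3:90213634-90213663, minus strand (Rps27), chr8:123102335-123102364, plus strand (Rpl13), chr7:141447636-141447665, plus strand (Rplp2), chr2:26910792-26910821, plus strand (Rpl7a), chr19:6057932-6057961, plus strand (Fau) and chr4:86857353-86857382, minus strand (Rps6). Promoter sequence was at hand for 54 of the 75 ribosomal protein genes and 7244 of the 10104 tested genes. CTTTC or CTTTT, searched together on both strands, was in 21 of the 54 windows (38.9%) and in 13.2% of the windows of all tested genes. On the gene's own strand alone the shares were 37% and 7.79%. A match describes the letters of the window and does not show that a factor binds there.

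A further 3 stretches, the 250 bases before the start, are single examples from other gene groups described below and do not show what is common in a group. Atp5j encodes a subunit of the ATP synthase, S100a8 a subunit of the alarmin calprotectin and Lcn2 the secondary granule protein lipocalin 2, and all 3 genes were called higher at 26 weeks. Capitals mark CCGGAAG (an ETS-type motif) in Atp5j, TATAAA in S100a8 and a match to TTNNGCAA (a C/EBP-type motif) in Lcn2, the last on the opposite strand.
Atp5j: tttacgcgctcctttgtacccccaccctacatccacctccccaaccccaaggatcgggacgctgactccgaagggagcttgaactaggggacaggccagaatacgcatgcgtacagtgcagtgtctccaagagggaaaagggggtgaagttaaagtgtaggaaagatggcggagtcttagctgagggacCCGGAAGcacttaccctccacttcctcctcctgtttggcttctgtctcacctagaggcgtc
S100a8: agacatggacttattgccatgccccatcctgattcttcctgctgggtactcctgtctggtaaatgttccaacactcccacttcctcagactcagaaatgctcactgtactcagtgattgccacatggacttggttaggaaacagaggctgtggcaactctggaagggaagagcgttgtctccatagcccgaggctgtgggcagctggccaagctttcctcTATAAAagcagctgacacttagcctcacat
Lcn2: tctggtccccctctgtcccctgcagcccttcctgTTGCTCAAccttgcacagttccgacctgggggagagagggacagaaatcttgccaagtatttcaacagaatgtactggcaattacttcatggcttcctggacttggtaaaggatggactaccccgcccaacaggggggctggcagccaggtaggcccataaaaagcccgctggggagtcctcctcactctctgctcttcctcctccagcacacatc
The stretches lie at chr16:84834977-84835226, minus strand, chr3:90668821-90669070, plus strand and chr2:32387740-32387989, minus strand, in that order. Searched on both strands of the 250 bases, CCGGAAG was in 29.4% of proteasome promoters, 18.8% of those of the nuclear respiratory chain and 17.7% of those of all tested genes. On the gene's own strand alone, as in Atp5j, the shares were 14.7%, 6.25% and 9.79%. TTNNGCAA was in 5 of 17 secondary granule promoters (29.4%) and in 9.03% of all. TATAAA was in 7.34% of all promoters, and its share was not counted for the S100 genes. Matches of different motifs may share bases.

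The libraries of the 2 ages differed in more than single genes. Totals ran from 10252056 to 12437984 counts at 14 weeks and from 5546624 (library 5) to 17256379 (library 3) at 26 weeks, and between 10357 and 13164 genes had counts in a library. Genes for ribosomal RNA took 0.0197% to 0.0252% of counts at 14 weeks and 0.0456% to 0.441% at 26 weeks. At 26 weeks library 5 had the highest share and library 1 the second highest (0.24%), and library 4 (0.0456%) came nearest to 14 weeks. Calls and counts that moved without libraries 1 and 5 are therefore given without them as well, and the part of ribosomal RNA in the results was not tested. All 20 neutrophil marker genes were detected, summing to between 154130.0 and 219460.0 CPM at 14 weeks and between 168350.0 and 336360.0 CPM at 26 weeks, where CPM is the count of a gene scaled to the size of its library. The markers did not move in 1 direction: 7 of the 20 were called higher and 4 lower, with a median log2 fold change of -0.03. Without libraries 1 and 5 of 26 weeks the counts were 1 and 1. All tested genes had 5.45% called higher and 5.54% lower.

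Of 10104 genes tested, 1111 (11%) changed between 14 and 26 weeks at an adjusted p under 0.05, 551 higher and 560 lower (edgeR quasi-likelihood F test, Benjamini-Hochberg). The unadjusted p was under 0.05 for 2367 genes. Rises reached further than falls: the median log2 fold change of higher genes was 1.22 and that of lower genes -0.88, and 106 genes rose but 3 fell by more than 2 on the log2 scale. In 460 of the called genes the 6 libraries of one age lay wholly above the 6 of the other, 174 of them higher and 286 lower, against 6.76% of all tested genes without overlap. In sorted bulk RNA, fewer cells of a kind and less RNA per cell cannot be told apart, and a CPM is a share of the library.

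**Figure D1:**
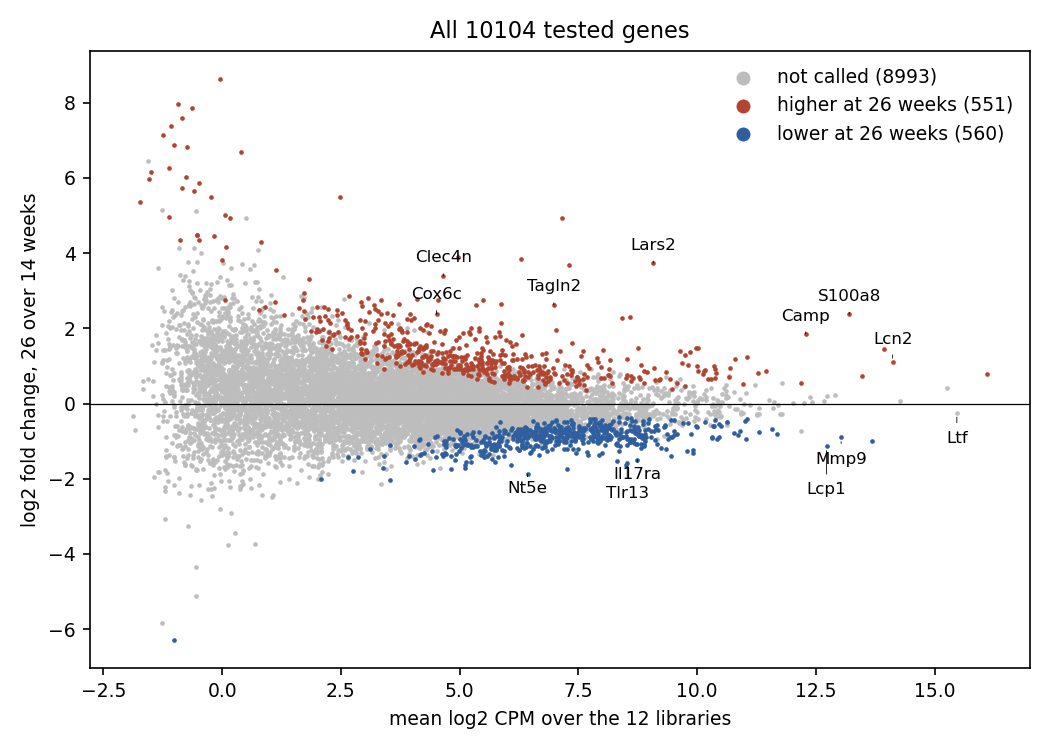
Log2 fold change (26 over 14 weeks, vertical) against mean log2 CPM over the 12 libraries (horizontal) for the 10104 tested genes, 1 point per gene. The 551 genes called higher (red) reach further from 0 than the 560 called lower (blue). The abundant genes S100a8, Camp and Lcn2 lie above 0 while Mmp9 and Lcp1 lie below.

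Called genes also differed in length. The merged exons of higher genes had a median of 1987 bases, those of lower genes 5806 and those of all tested genes 4209. Genes were put in 5 classes of equal size by length. In the shortest class (57 to 2181 bases) 14.9% were called higher and 1.61% lower, and in the longest class (7330 to 123179 bases) 1.26% higher and 9.16% lower. A fit corrected for length by a smooth curve in each library called 145 genes higher and 286 lower (33.6% of calls higher, against 49.6%), and one corrected for GC content 272 and 464 (37%). Other scaling factors tilted the split the other way, with 699 higher and 429 lower under upper quartile factors (62%) and 604 and 491 under RLE factors (55.2%). DESeq2, which differs in its test and filter as well as its scaling, gave 1081 and 727 (59.8%). The part of length in the change was not tested further. Without libraries 1 and 5 of 26 weeks 192 genes were called, 89 higher and 103 lower, of which 187 were among the 1111, all in the same direction. Leaving out 1 library of 14 or 26 weeks gave 652 calls (library 1 of 26 weeks) to 1544 (library 4 of 26 weeks). It was 733 without library 2 and 726 without library 6 of 26 weeks.

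**Figure D2:**
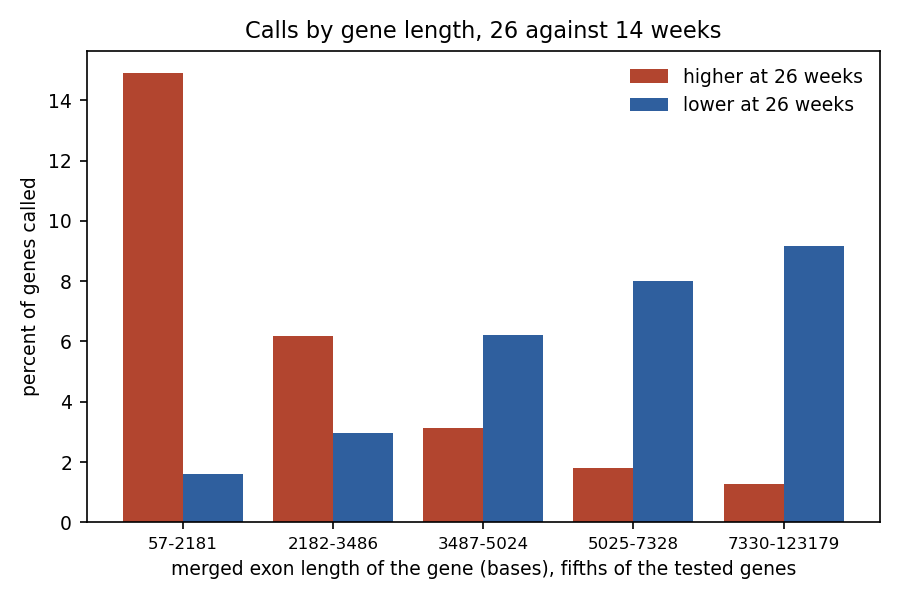
Percent of genes called higher (red) or lower (blue) at 26 weeks, in 5 classes of tested genes by merged exon length in bases. The share called higher falls from 14.9% to 1.26% from the shortest to the longest class, while the share called lower climbs from 1.61% to 9.16%.

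**Figure D3:**
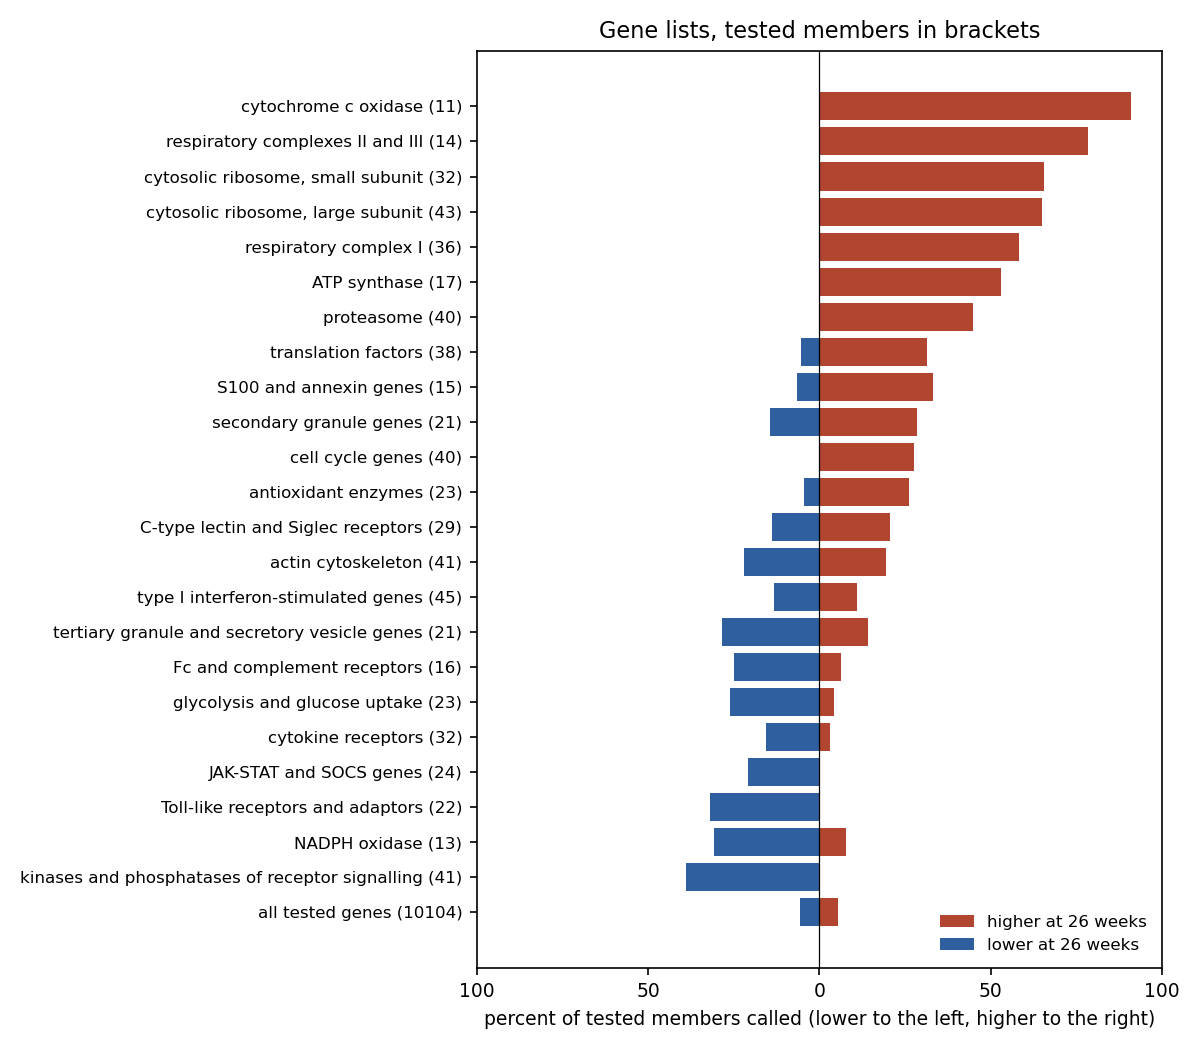
Percent of the tested members of each gene list called lower (blue, to the left) or higher (red, to the right) at 26 weeks, with the number tested in brackets. Cytochrome c oxidase (10 of 11 higher) and the ribosomal subunits stand at the top, kinases and phosphatases (16 of 41 lower) near the bottom, and the last bar gives all 10104 tested genes.

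Counts of list members stand against 5.45% of all tested genes called higher and 5.54% called lower. Those with the length correction stand against 145 higher and 286 lower of 10104 tested genes. Those without libraries 1 and 5 of 26 weeks stand against 89 higher and 103 lower of 10673. A smaller count in such a fit does not by itself show a smaller change. Every one of the 75 tested cytosolic ribosomal protein genes had a log2 fold change above 0, with a median of 1.92 (0.04 over all tested genes). For single genes, the 3 levels given for an age are the lowest, median and highest of its 6 libraries, and brackets hold the log2 fold change ± SE with edgeR's adjusted p. Rps27, a protein of the small subunit, was measured at 4.16, 5.59 and 8.23 CPM at 14 weeks and 9.22, 32.7 and 73.3 CPM at 26 weeks (2.64 ± 0.42, adjusted p = 0.00154). Rpl10, a large subunit protein at the site where the subunits meet, was measured at 7.81, 15.3 and 18.2 CPM at 14 weeks and 21.5, 49.3 and 79.6 CPM at 26 weeks (1.87 ± 0.32, adjusted p = 0.00182). For both genes every 26-week library lay above every 14-week library. Rps3, which lines the entry channel of the mRNA, was measured at 31.9, 40.2 and 47.3 CPM at 14 weeks and 56.2, 119 and 189.9 CPM at 26 weeks (1.63 ± 0.26, adjusted p = 0.00154), without overlap. Rpl41, the shortest of the ribosomal proteins, was measured at 2.50, 3.26 and 5.11 CPM at 14 weeks and 4.87, 19.4 and 36.9 CPM at 26 weeks (2.59 ± 0.45, adjusted p = 0.00218), and Rps9 was measured at 135, 163 and 192 CPM at 14 weeks and 183, 347 and 597 CPM at 26 weeks (1.21 ± 0.22, adjusted p = 0.00269). In these last genes the lowest 26-week library fell within the 14-week range. Rps27 lies at chr3:90212522-90213651, Rpl10 at chrX:74270812-74273135 and Rps3 at chr7:99477896-99483738 (GRCm38, GENCODE M21).

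Summed over the ribosomal protein genes, levels were 783 to 1058 CPM at 14 weeks and 1150 to 4087 CPM at 26 weeks. The highest 26-week sums were in libraries 5 (4087 CPM) and 1 (3499 CPM), and the lowest in library 4 (1150 CPM), as for ribosomal RNA. Of the 75 genes, 20 were called higher with the length correction and 11 without libraries 1 and 5, where the median was 1.41. In 27 of the 75 all 6 libraries of 26 weeks lay above all 6 of 14 weeks (2.9% of all tested genes). Ribosomal protein genes have many processed copies in the genome, and the sources used here do not say where a read that fits several copies was put.

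Translation factors moved less evenly, with 12 of 38 higher and 2 lower (median 0.65). Tpt1, which encodes the growth-regulated protein TCTP and whose mRNA starts like those of ribosomal proteins, was measured at 24, 30.7 and 36.5 CPM at 14 weeks and 37.4, 103 and 186 CPM at 26 weeks (1.78 ± 0.29, adjusted p = 0.00154). Eif4g2, a scaffold for initiation without a cap, fell instead: it was measured at 599, 679 and 812 CPM at 14 weeks and 219, 279.9 and 596 CPM at 26 weeks (-1.09 ± 0.22, adjusted p = 0.00412). Both genes were without overlap between the ages. The factors called higher had a median length of 2512 bases and the 2 called lower 8493 bases. For translation factors the counts were 3 higher and 1 lower with the length correction, and 3 and 0 without libraries 1 and 5 of 26 weeks. The higher count was 7 without library 5 of 14 weeks, and the lower count was 1 in each of the 12 fits that left out 1 library. The call of Eif4g2 was lost without libraries 1 and 5 of 26 weeks (adjusted p = 0.0604).

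Most nuclear genes of the respiratory chain rose as well. Of 78 tested, 51 were called higher and 0 lower, with a median log2 fold change of 1.34 and 76 of the 78 above 0. Complex I, which takes electrons from NADH, had 21 of 36 higher, complexes II and III 11 of 14, cytochrome c oxidase 10 of 11 and the ATP synthase 9 of 17. Ndufb5, an accessory subunit of complex I, was measured at 6.03, 7.21 and 9.14 CPM at 14 weeks and 12, 24 and 44.1 CPM at 26 weeks (1.91 ± 0.37, adjusted p = 0.00352), without overlap. Ndufa3, another accessory subunit, was measured at 5.83, 8.48 and 10.5 CPM at 14 weeks and 10.8, 33.2 and 88.8 CPM at 26 weeks (2.28 ± 0.46, adjusted p = 0.00473), again without overlap. Ndufs7, a core subunit that carries an iron-sulfur cluster, was measured at 20.6, 29.9 and 35.2 CPM at 14 weeks and 33.2, 67.3 and 94.1 CPM at 26 weeks (1.14 ± 0.22, adjusted p = 0.00329), with library 4 of 26 weeks inside the 14-week range.

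Uqcrb of complex III was measured at 5.38, 7.82 and 9.18 CPM at 14 weeks and 10.1, 26.9 and 57.6 CPM at 26 weeks (1.96 ± 0.44, adjusted p = 0.00723). Cox6c, a subunit of cytochrome c oxidase, was measured at 8.01, 10 and 13.8 CPM at 14 weeks and 20.9, 55.7 and 105 CPM at 26 weeks (2.37 ± 0.37, adjusted p = 0.00149). Atp5j, whose promoter is shown above, was measured at 24.7, 32.9 and 37.6 CPM at 14 weeks and 38.3, 83.6 and 129 CPM at 26 weeks (1.40 ± 0.25, adjusted p = 0.00227). For these 3 genes the ages did not overlap. Cox8a, the smallest subunit of the oxidase, was measured at 11.2, 16.3 and 29 CPM at 14 weeks and 21.1, 61.3 and 104 CPM at 26 weeks (1.69 ± 0.32, adjusted p = 0.00329), with library 4 of 26 weeks inside the 14-week range. Cox6c lies at chr15:35925886-35938246, Atp5j at chr16:84827866-84835625 and Uqcrb at chr13:66900617-66905378.

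At 26 weeks the sums over the nuclear respiratory chain followed the same order of mice as the ribosome. They ran from 2452.1 to 3009.8 CPM at 14 weeks and from 2935 (library 4) to 6211 CPM (library 5) at 26 weeks. With the length correction 14 of the 78 were called higher, and without libraries 1 and 5 there were 8. For complexes II and III no gene was called under either (0 of 14). Their count of 11 was 4 to 6 without library 1, 2, 3, 4 or 5 of 14 weeks or 1, 2, 5 or 6 of 26 weeks, and that of complex I was 13 without library 5 of 14 weeks or library 1 of 26 weeks. The calls of Ndufb5, Ndufa3 and Uqcrb were lost without libraries 1 and 5 of 26 weeks (adjusted p from 0.054 to 0.117), and the calls of Ndufs7 and Uqcrb were lost with the length correction (adjusted p from 0.0533 to 0.121).

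**Figure D4:**
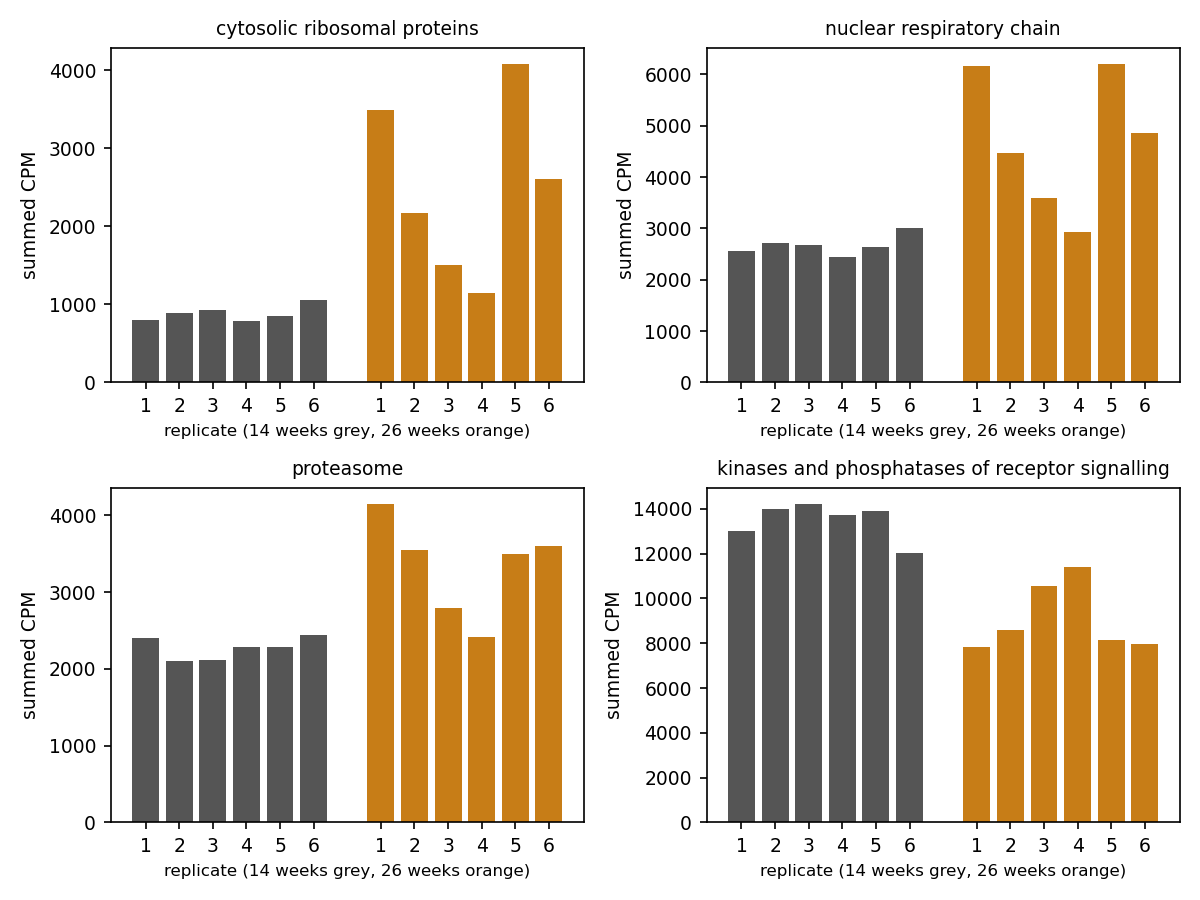
Summed CPM of 4 gene lists in each library (bars), 14 weeks in grey and 26 weeks in orange, by replicate number. Ribosomal proteins run from 783 to 1058 CPM at 14 weeks and to 4087 CPM at 26 weeks, with library 4 of 26 weeks nearest to the younger mice, and the kinases and phosphatases run the other way, from 12019 to 14240.0 CPM down to 7837 to 11409 CPM.

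Transcripts encoded by the mitochondrial genome rose alongside, 5 of 7 higher and 0 lower, with a median of 1.72. mt-Co1, the catalytic subunit of cytochrome c oxidase, was measured at 96.9, 117 and 158 CPM at 14 weeks and 175, 371 and 432 CPM at 26 weeks (1.40 ± 0.28, adjusted p = 0.00473), without overlap. mt-Cytb, the cytochrome b of complex III, was measured at 56, 68.3 and 103 CPM at 14 weeks and 95.2, 215 and 255 CPM at 26 weeks (1.33 ± 0.27, adjusted p = 0.00462), with slight overlap. No mitochondrially encoded gene was called with the length correction or without libraries 1 and 5, and 3 were called without library 5 alone. The calls of mt-Co1 and mt-Cytb were lost without libraries 1 and 5 of 26 weeks (adjusted p from 0.0539 to 0.0571), and those were also lost with the length correction (adjusted p from 0.0769 to 0.146). Among proteins of the mitochondrial ribosome 10 of 68 rose and 1 fell, although the median was 1.14. Mrps14, a small subunit protein, was measured at 4.56, 7.26 and 9.26 CPM at 14 weeks and 11.2, 28.7 and 49.4 CPM at 26 weeks (1.97 ± 0.46, adjusted p = 0.00996). Mrpl48 was measured at 97.7, 106 and 133 CPM at 14 weeks and 63.9, 80.5 and 94.3 CPM at 26 weeks (-0.48 ± 0.15, adjusted p = 0.0403) and was the exception, a call lost without library 1, 2, 3, 4 or 5 of 14 weeks or library 1, 2, 3, 5 or 6 of 26 weeks (adjusted p from 0.056 to 0.12). In both genes the ages were without overlap. The count of 10 was 5 to 6 without library 3 or 4 of 14 weeks or library 2 or 5 of 26 weeks. For the mitochondrial ribosome the counts were 3 higher and 0 lower with the length correction, and 0 and 0 without libraries 1 and 5 of 26 weeks. The calls of Mrps14 and Mrpl48 were lost without libraries 1 and 5 of 26 weeks (adjusted p from 0.111 to 0.257), and those were also lost with the length correction (adjusted p from 0.064 to 0.583).

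The proteasome, which degrades tagged proteins and feeds peptides to MHC class I, had 18 of 40 genes higher and 0 lower, with a median of 0.55. Psmb2, a subunit of its catalytic core, was measured at 41.1, 47.2 and 67.6 CPM at 14 weeks and 62.1, 128 and 153 CPM at 26 weeks (1.18 ± 0.21, adjusted p = 0.00218), with slight overlap. Psma4, a subunit of the outer ring, was measured at 12.1, 17.1 and 18.2 CPM at 14 weeks and 25, 36.8 and 43.1 CPM at 26 weeks (1.11 ± 0.23, adjusted p = 0.00485), without overlap. Of the 24 MHC class I presentation genes 4 rose and 0 fell, and 3 of those are inducible proteasome subunits that stand in both lists. Psmb9, one of these, was measured at 109, 116 and 134 CPM at 14 weeks and 120.4, 218 and 269.8 CPM at 26 weeks (0.79 ± 0.18, adjusted p = 0.00956), with library 4 inside the 14-week range. B2m, the invariant chain of MHC class I, was measured at 1232, 1465 and 1648 CPM at 14 weeks and 1275, 3745 and 4486 CPM at 26 weeks (1.22 ± 0.22, adjusted p = 0.00253), with its lowest 26-week library inside the 14-week range. For the proteasome the counts were 0 higher and 0 lower with the length correction, and 2 and 0 without libraries 1 and 5 of 26 weeks. Its median was 0.37 and 0.53 in these fits. For MHC class I presentation the counts were 0 higher and 1 lower with the length correction, and 1 and 0 without libraries 1 and 5 of 26 weeks. The higher MHC class I count was 2 without library 4 of 14 weeks. H2-D1 and H2-K1, which encode MHC class I heavy chains, were not called. The call of Psmb9 was lost without libraries 1 and 5 of 26 weeks (adjusted p = 0.0939), and the calls of Psmb2, Psma4, Psmb9 and B2m were lost with the length correction (adjusted p from 0.0659 to 0.115).

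Granule genes were called in both directions. Among 21 secondary granule genes 6 rose and 3 fell, with a median of 0.04, and among 21 tertiary granule and secretory vesicle genes 3 rose and 6 fell, with a median of -0.02. Camp, which encodes the antimicrobial peptide cathelicidin, was measured at 2134, 2670.0 and 4397 CPM at 14 weeks and 3989.9, 10338 and 18641 CPM at 26 weeks (1.86 ± 0.38, adjusted p = 0.0051). Lcn2, whose protein binds bacterial iron carriers, was measured at 10166, 12596 and 15236 CPM at 14 weeks and 13382, 29066 and 38826 CPM at 26 weeks (1.09 ± 0.26, adjusted p = 0.00984). Orm1, the acute-phase protein orosomucoid, was measured at 4.16, 8.64 and 26.5 CPM at 14 weeks and 30.3, 69.8 and 113 CPM at 26 weeks (2.75 ± 0.56, adjusted p = 0.00492), and alone of these 3 had no overlap. Ltf, the lactoferrin gene and the most abundant of the named granule genes, was not called, at 36746, 52182 and 64462 CPM at 14 weeks and 28136, 41053 and 59893 CPM at 26 weeks (-0.25 ± 0.29, adjusted p = 0.694).

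Mmp8, the neutrophil collagenase, fell while Camp rose: it was measured at 16338, 18058 and 22777 CPM at 14 weeks and 7906, 9465 and 10814 CPM at 26 weeks (-0.99 ± 0.20, adjusted p = 0.00474). Itgb2, the integrin chain CD18, was measured at 2936, 3309.5 and 3644 CPM at 14 weeks and 1602, 1883 and 2558 CPM at 26 weeks (-0.76 ± 0.12, adjusted p = 0.00154). Both genes had every 26-week library below every 14-week library. Camp lies at chr9:109847379-109849617, Lcn2 at chr2:32384633-32388252, Mmp8 at chr9:7558456-7568485 and Ltf at chr9:111019271-111042767. The secondary granule genes that rose had a median length of 1130.0 bases and those that fell 3052 bases. For the secondary granule list the counts were 2 higher and 3 lower with the length correction, and 1 and 1 without libraries 1 and 5 of 26 weeks. The calls of Camp, Lcn2 and Mmp8 were lost without libraries 1 and 5 of 26 weeks (adjusted p from 0.0575 to 0.115), and the call of Lcn2 was lost with the length correction (adjusted p = 0.15).

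In the tertiary granule list, Mmp9, the gelatinase of these granules, was measured at 9901, 11199 and 13574 CPM at 14 weeks and 4781, 5974 and 8868 CPM at 26 weeks (-0.90 ± 0.15, adjusted p = 0.00155). Adam8, a membrane metalloproteinase that sheds surface proteins, was measured at 528, 728 and 774 CPM at 14 weeks and 214, 298 and 456 CPM at 26 weeks (-1.19 ± 0.21, adjusted p = 0.00227). Mmp25, a membrane-anchored metalloproteinase of neutrophils, was measured at 410.0, 483 and 625 CPM at 14 weeks and 174, 204 and 369.8 CPM at 26 weeks (-1.14 ± 0.21, adjusted p = 0.00247). All 3 proteases fell without overlap between the ages. Vnn3, a vanin of the pantetheinase family, also fell: it was measured at 22.2, 41 and 56.3 CPM at 14 weeks and 9.24, 11.4 and 15.5 CPM at 26 weeks (-1.77 ± 0.29, adjusted p = 0.00155). Wfdc21, a small whey acidic protein, was measured at 157, 169.7 and 214 CPM at 14 weeks and 231, 774 and 1783 CPM at 26 weeks (2.28 ± 0.42, adjusted p = 0.00253), the opposite direction and again without overlap. Fpr2, a receptor for formyl peptides, was measured at 233, 350.4 and 381 CPM at 14 weeks and 336, 658 and 1127 CPM at 26 weeks (1.02 ± 0.25, adjusted p = 0.0114), with overlap. With the length correction 1 of the 21 genes was called higher and 6 lower, and without libraries 1 and 5 there were 1 and 5. The call of Fpr2 was lost without libraries 1 and 5 of 26 weeks (adjusted p = 0.144), and that was also lost with the length correction (adjusted p = 0.47).

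Primary granule genes were mostly near 0: transcripts of Mpo, Elane, Prtn3 and Ctsg did not pass 2.01 CPM in any of the 12 libraries. Of 5 tested, 1 rose. Fcnb, the lectin ficolin B of early neutrophil precursors, was measured at 5.30, 15.2 and 65.6 CPM at 14 weeks and 76.3, 137 and 218 CPM at 26 weeks (2.74 ± 0.54, adjusted p = 0.00389), without overlap, although library 6 of 14 weeks (65.6 CPM) stood close to the older mice. The call of Fcnb was kept without libraries 1 and 5 and with the length correction.

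**Figure D5:**
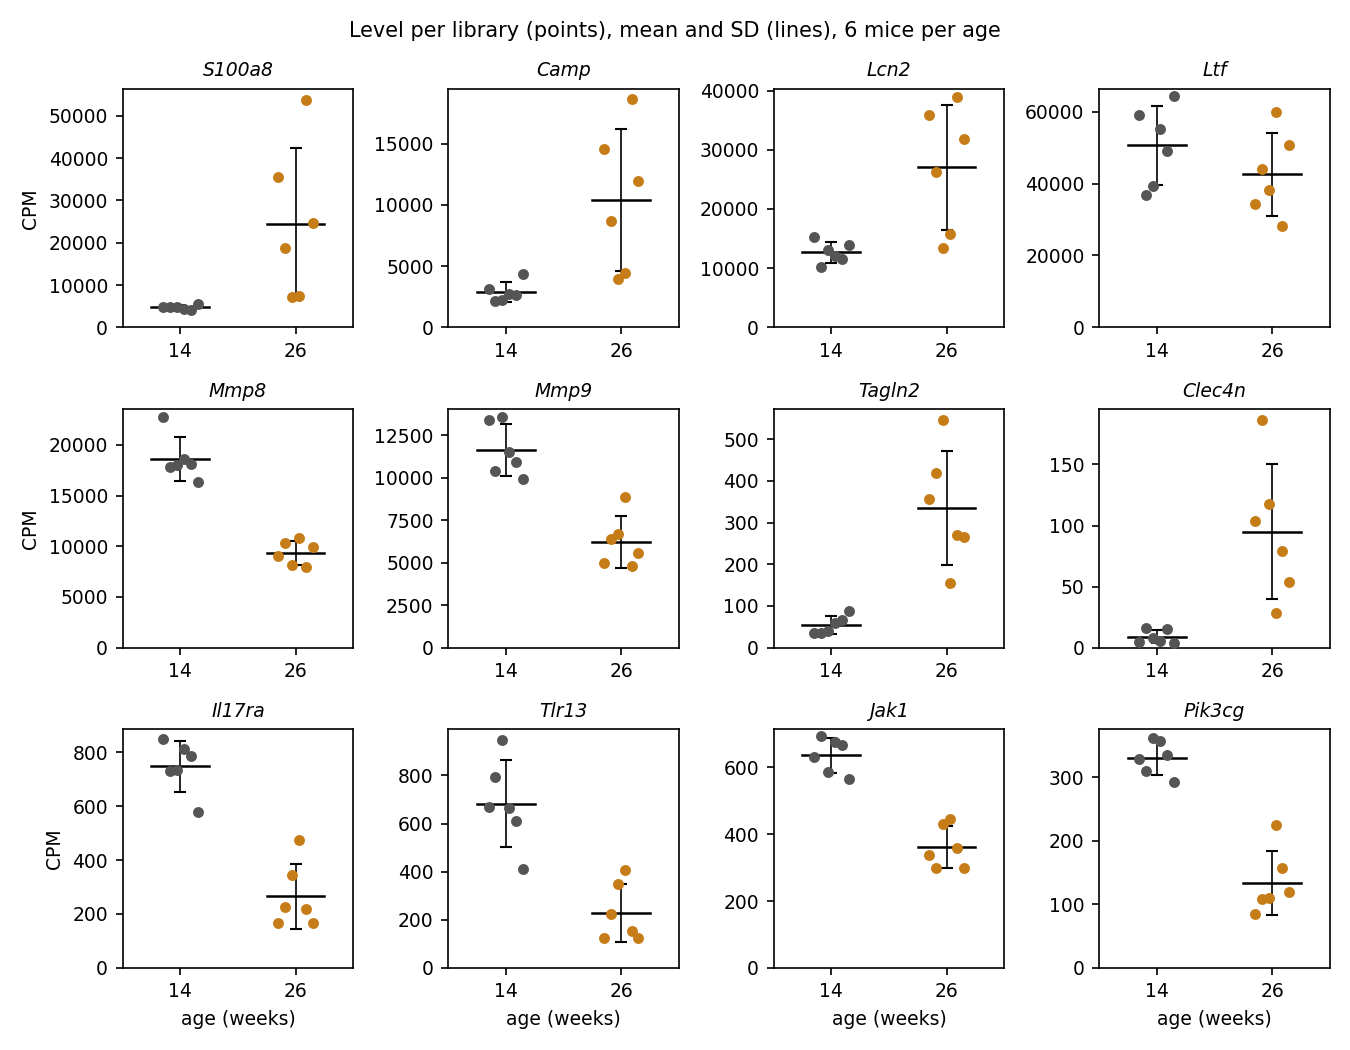
Level in CPM of 12 genes in each library (points) at 14 weeks (grey) and 26 weeks (orange), with the mean and SD of 6 mice (lines). S100a8 runs from 4082 to 5499 CPM at 14 weeks and from 7131 to 53817 CPM at 26 weeks, Mmp8 from 16338 to 22777 CPM down to 7906 to 10814 CPM, and the Ltf ranges overlap.

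Both chains of calprotectin rose. Of 15 S100 and annexin genes 5 rose and 1 fell, with a median of 0.76. S100a8 was measured at 4082, 4789 and 5499 CPM at 14 weeks and 7131, 21613 and 53817 CPM at 26 weeks (2.38 ± 0.40, adjusted p = 0.00155), without overlap, and spread more widely at 26 than at 14 weeks. S100a9, the partner chain, was measured at 8599, 10864 and 11698 CPM at 14 weeks and 10563, 26729 and 55710.1 CPM at 26 weeks (1.45 ± 0.34, adjusted p = 0.00996), with slight overlap. S100a6 was measured at 174, 202 and 260.1 CPM at 14 weeks and 173, 387 and 869 CPM at 26 weeks (1.16 ± 0.29, adjusted p = 0.0131), where library 4 of 26 weeks lay below the 14-week range and the others above it. The count of 5 was 3 without library 3, 4, 5 or 6 of 14 weeks or library 1 or 5 of 26 weeks, and the lower count was 2 without library 6 of 14 weeks. For S100 and annexin genes the counts were 1 higher and 2 lower with the length correction, and 1 and 1 without libraries 1 and 5 of 26 weeks. The calls of S100a9 and S100a6 were lost without libraries 1 and 5 of 26 weeks (adjusted p from 0.138 to 0.187), and those were also lost with the length correction (adjusted p from 0.0662 to 0.275). Cstb, a stefin that inhibits cathepsins, was measured at 25.8, 30.7 and 34.4 CPM at 14 weeks and 31.1, 63.7 and 129.7 CPM at 26 weeks (1.17 ± 0.26, adjusted p = 0.00758), and Wfdc17, a small secreted antiprotease, was measured at 9.57, 25.6 and 51.8 CPM at 14 weeks and 64.4, 121 and 439 CPM at 26 weeks (2.64 ± 0.55, adjusted p = 0.00542). Library 4 of 26 weeks lay inside the 14-week range for Cstb, and Wfdc17 had no overlap. Both belong to a list of stefins and protease inhibitors, of which 5 of 14 rose and 1 fell. The 1 that fell, Timp2, had the smallest p of the list and no overlap. For this list the counts were 2 higher and 1 lower with the length correction, and 1 and 1 without libraries 1 and 5. The calls of Cstb and Wfdc17 were lost without libraries 1 and 5 of 26 weeks (adjusted p from 0.0718 to 0.0852), and the call of Cstb was lost with the length correction (adjusted p = 0.108).

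The NADPH oxidase, which makes superoxide in the phagosome, had 1 gene higher and 4 lower of 13. Cyba, its membrane subunit p22phox, was measured at 910.1, 1014 and 1091 CPM at 14 weeks and 1003, 1820.2 and 2732 CPM at 26 weeks (0.91 ± 0.20, adjusted p = 0.00772), with library 4 of 26 weeks inside the 14-week range. The 4 that fell encode regulators of the complex and not subunits: the kinases Prkcb and Prkcd, which stand in the kinase list below as well, and the exchange factors Vav1 and Vav3. Prkcb was measured at 393, 458 and 547 CPM at 14 weeks and 162, 214 and 315 CPM at 26 weeks (-1.05 ± 0.16, adjusted p = 0.00149) and Prkcd was measured at 508, 559 and 598 CPM at 14 weeks and 211, 325 and 444 CPM at 26 weeks (-0.78 ± 0.18, adjusted p = 0.00825), both without overlap. Of 11 genes linked to extracellular traps 2 fell and 0 rose. Lbr, which holds chromatin at the inner nuclear membrane, was measured at 1128, 1281 and 1332 CPM at 14 weeks and 466, 674 and 1083 CPM at 26 weeks (-0.82 ± 0.20, adjusted p = 0.0138), without overlap. Padi4, the enzyme that citrullinates histones in traps, was measured at 771, 832 and 1184 CPM at 14 weeks and 325, 488 and 853 CPM at 26 weeks (-0.80 ± 0.25, adjusted p = 0.0455), a call lost without library 1, 2, 3, 4, 5 or 6 of 14 weeks or library 1, 2, 3, 5 or 6 of 26 weeks (adjusted p from 0.0543 to 0.135). Library 4 of 26 weeks (853 CPM) reached the 14-week range of Padi4. For the NADPH oxidase the counts were 0 higher and 1 lower with the length correction, and 0 and 1 without libraries 1 and 5 of 26 weeks. For the trap genes the counts were 0 higher and 0 lower with the length correction, and 0 and 0 without libraries 1 and 5 of 26 weeks. The trap count of 2 was 1 without library 1, 2, 3, 4, 5 or 6 of 14 weeks or library 1, 2, 3, 5 or 6 of 26 weeks. The calls of Cyba, Prkcd, Lbr and Padi4 were lost without libraries 1 and 5 of 26 weeks (adjusted p from 0.0736 to 0.327), and those were also lost with the length correction (adjusted p from 0.0738 to 0.385).

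Several sensors of microbial products fell. Of 22 Toll-like receptors and adaptors 7 were called lower and 0 higher, with a median of -0.29, against 5.54% of all tested genes called lower. Tlr13, the endosomal receptor for bacterial ribosomal RNA, was measured at 410.4, 666 and 949 CPM at 14 weeks and 123, 189 and 406 CPM at 26 weeks (-1.57 ± 0.28, adjusted p = 0.00247). Tlr5, the flagellin receptor, was measured at 34.9, 47.3 and 61.1 CPM at 14 weeks and 8.29, 17.1 and 33.8 CPM at 26 weeks (-1.40 ± 0.32, adjusted p = 0.00894). Irak3, an inhibitor of signalling from these receptors, was measured at 177, 207 and 272 CPM at 14 weeks and 58.9, 111 and 150.2 CPM at 26 weeks (-0.96 ± 0.17, adjusted p = 0.00227). These 3 genes were lower in every 26-week library than in any 14-week library. Tlr2, the lipoprotein receptor, was measured at 242, 343 and 452 CPM at 14 weeks and 104, 180.3 and 263 CPM at 26 weeks (-0.93 ± 0.22, adjusted p = 0.00984), with slight overlap. Tlr8, an endosomal receptor for RNA, was measured at 53, 54.6 and 68.7 CPM at 14 weeks and 4.86, 14.5 and 42 CPM at 26 weeks (-1.50 ± 0.43, adjusted p = 0.0315), a call lost without library 1, 2, 3, 4 or 5 of 14 weeks or library 1, 2, 5 or 6 of 26 weeks (adjusted p from 0.0504 to 0.08). The count of 7 was 4 without library 1 or 5 of 14 weeks or library 1, 2 or 5 of 26 weeks. For the Toll-like receptors the counts were 0 higher and 3 lower with the length correction, and 0 and 2 without libraries 1 and 5 of 26 weeks. Tlr13 lies at chrX:106143204-106160493. The calls of Tlr5, Tlr2 and Tlr8 were lost without libraries 1 and 5 of 26 weeks (adjusted p from 0.0878 to 0.167), and the calls of Tlr5 and Tlr8 were lost with the length correction (adjusted p from 0.0696 to 0.0696).

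Of 15 cytosolic sensors of nucleic acids 3 fell. Ddx58, the RNA sensor RIG-I, was measured at 85.6, 120.2 and 145 CPM at 14 weeks and 43.4, 52.2 and 73.3 CPM at 26 weeks (-1.10 ± 0.24, adjusted p = 0.00602), and Adar, which edits double-stranded RNA, was measured at 57.7, 82.5 and 144 CPM at 14 weeks and 18.6, 38.7 and 51.1 CPM at 26 weeks (-1.24 ± 0.30, adjusted p = 0.0122), both without overlap. Samhd1, which depletes deoxynucleotides, was measured at 964, 1367 and 1437 CPM at 14 weeks and 721, 803 and 1047 CPM at 26 weeks (-0.62 ± 0.13, adjusted p = 0.00492), with overlap. One further sensor gene was called higher from 0 counts at 14 weeks and is not described. For the cytosolic sensors the counts were 0 higher and 1 lower with the length correction, and 0 and 0 without libraries 1 and 5 of 26 weeks. The higher count of 1 was 0 without library 1, 2, 3, 4, 5 or 6 of 14 weeks or library 1, 3 or 6 of 26 weeks. The calls of Ddx58, Adar and Samhd1 were lost without libraries 1 and 5 of 26 weeks (adjusted p from 0.0575 to 0.119), and the calls of Ddx58 and Samhd1 were lost with the length correction (adjusted p from 0.108 to 0.287).

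Receptors for antibody and complement went both ways. Of 16, 1 rose and 4 fell. Fcer1g, the signalling chain shared by Fc receptors, was measured at 808, 933 and 1185 CPM at 14 weeks and 811, 1831 and 3254 CPM at 26 weeks (1.00 ± 0.23, adjusted p = 0.00872). Itgam, the chain CD11b of complement receptor 3 and of the sort gate, was measured at 1638, 2072 and 2128 CPM at 14 weeks and 796, 932 and 1822 CPM at 26 weeks (-0.89 ± 0.19, adjusted p = 0.00542), where only library 4 (1822 CPM) entered the 14-week range. Pirb, an inhibitory receptor for MHC class I, was measured at 599.8, 611 and 661 CPM at 14 weeks and 294, 357 and 479.8 CPM at 26 weeks (-0.71 ± 0.17, adjusted p = 0.0116), without overlap. Of 29 C-type lectin, Siglec and related receptors 6 rose and 4 fell (median 0.27). Clec4n, the fungal receptor Dectin-2, was measured at 3.90, 6.78 and 16.4 CPM at 14 weeks and 28.5, 91.3 and 186 CPM at 26 weeks (3.40 ± 0.43, adjusted p = 0.000964), without overlap. The adaptor chain Tyrobp (DAP12) was measured at 544, 709 and 1147 CPM at 14 weeks and 672, 1426 and 2393 CPM at 26 weeks (0.99 ± 0.23, adjusted p = 0.0107). Hcst (DAP10), its neighbour on chromosome 7, was measured at 12.4, 14.6 and 16.7 CPM at 14 weeks and 17.9, 44.3 and 128 CPM at 26 weeks (1.97 ± 0.41, adjusted p = 0.00542), without overlap. Sirpa, which receives the signal of CD47, was measured at 695, 996 and 1162 CPM at 14 weeks and 344, 447 and 779 CPM at 26 weeks (-0.89 ± 0.20, adjusted p = 0.00828). Library 4 of 26 weeks lay inside the 14-week range for Fcer1g, Tyrobp and Sirpa, and library 3 as well for Sirpa. Clec4n lies at chr6:123229843-123247021, Tyrobp at chr7:30413760-30417585 and Hcst at chr7:30417712-30419854. For antibody and complement receptors the counts were 0 higher and 4 lower with the length correction, and 0 and 1 without libraries 1 and 5 of 26 weeks. For the lectin list the counts were 3 higher and 3 lower with the length correction, and 2 and 0 without libraries 1 and 5 of 26 weeks. The calls of Fcer1g, Itgam, Pirb, Tyrobp, Hcst and Sirpa were lost without libraries 1 and 5 of 26 weeks (adjusted p from 0.0766 to 0.129), and the calls of Fcer1g, Itgam and Tyrobp were lost with the length correction (adjusted p from 0.0599 to 0.331).

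Among 22 receptors for chemokines and other attractants 6 rose and 1 fell. Ccrl2, which presents chemerin, was measured at 19.1, 37.6 and 99.9 CPM at 14 weeks and 73.5, 159 and 349.6 CPM at 26 weeks (1.83 ± 0.45, adjusted p = 0.0128). Gpr35, a G protein-coupled receptor, was measured at 4.80, 8.67 and 22.7 CPM at 14 weeks and 18, 26.7 and 54.3 CPM at 26 weeks (1.57 ± 0.36, adjusted p = 0.00853). Cxcr4, which holds neutrophils in the marrow, was measured at 120.3, 157 and 190.4 CPM at 14 weeks and 174, 287 and 305 CPM at 26 weeks (0.77 ± 0.19, adjusted p = 0.0138). In all 3 the ages overlapped. Cxcr2, which drives their release and recruitment, was measured at 1175, 1744 and 2516 CPM at 14 weeks and 772, 1158 and 1716 CPM at 26 weeks (-0.61 ± 0.19, adjusted p = 0.0442), a call lost without library 1, 2, 3 or 5 of 14 weeks or library 1, 2, 4, 5 or 6 of 26 weeks (adjusted p from 0.0531 to 0.12). One of the 6 higher genes had 0 counts in an age and is not described. For the attractant receptors the counts were 2 higher and 1 lower with the length correction, and 1 and 0 without libraries 1 and 5 of 26 weeks. Their lower count of 1 was 2 without library 6 of 14 weeks and 3 without library 3 of 26 weeks. Of 21 chemokines and cytokines 2 rose and 1 fell, against 5.45% and 5.54% of all tested genes, and the higher count was 4 without library 4 of 26 weeks. For chemokines and cytokines the counts were 0 higher and 0 lower with the length correction, and 0 and 0 without libraries 1 and 5 of 26 weeks. Il1b, the interleukin 1 beta gene, was measured at 239, 627 and 1114 CPM at 14 weeks and 859, 1583 and 2742 CPM at 26 weeks (1.36 ± 0.34, adjusted p = 0.014). Il16, a chemoattractant, was measured at 878, 988 and 1145 CPM at 14 weeks and 381, 514 and 770.1 CPM at 26 weeks (-0.84 ± 0.17, adjusted p = 0.00424), without overlap. The calls of Ccrl2, Cxcr4, Cxcr2, Il1b and Il16 were lost without libraries 1 and 5 of 26 weeks (adjusted p from 0.0507 to 0.237), and those were also lost with the length correction (adjusted p from 0.065 to 0.593).

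Several cytokine receptors and their kinases were lower. Of 32 receptors 1 rose and 5 fell (median -0.20), and of 24 JAK-STAT and SOCS genes 5 fell and 0 rose (median -0.31). Il17ra, the shared chain of interleukin 17 receptors, was measured at 579, 760.0 and 849 CPM at 14 weeks and 165, 221 and 475 CPM at 26 weeks (-1.50 ± 0.22, adjusted p = 0.000983), without overlap. Il2rg, the common gamma chain, was measured at 11.2, 15.4 and 19.2 CPM at 14 weeks and 25.1, 31.4 and 37.7 CPM at 26 weeks (1.04 ± 0.23, adjusted p = 0.00676), the 1 receptor that rose, without overlap. Csf3r, the receptor for the neutrophil growth factor G-CSF, was not called, at 1183, 1869 and 3288 CPM at 14 weeks and 772, 1234 and 2694 CPM at 26 weeks (-0.49 ± 0.29, adjusted p = 0.341). The kinase genes Jak1 and Jak2 fell: Jak1 was measured at 565, 649 and 694 CPM at 14 weeks and 298, 348 and 446 CPM at 26 weeks (-0.81 ± 0.13, adjusted p = 0.00149) and Jak2 was measured at 51.6, 77.5 and 94.6 CPM at 14 weeks and 11.6, 28 and 51.6 CPM at 26 weeks (-1.24 ± 0.31, adjusted p = 0.0143), both without overlap. Stat6, the transcription factor of interleukin 4 signalling, was measured at 359.7, 498 and 547 CPM at 14 weeks and 107, 204 and 368 CPM at 26 weeks (-1.08 ± 0.24, adjusted p = 0.00719), and Stat3, that of G-CSF signalling, was measured at 294, 358 and 389 CPM at 14 weeks and 165, 224 and 301 CPM at 26 weeks (-0.58 ± 0.15, adjusted p = 0.0143), a call lost without library 1, 2 or 6 of 26 weeks (adjusted p from 0.0515 to 0.0579). For Stat6 library 3 and for Stat3 library 4 of 26 weeks lay inside the 14-week range. The receptor count of 5 was 1 to 3 without library 1, 2, 3, 4 or 5 of 14 weeks or library 1, 2, 5 or 6 of 26 weeks, and the JAK-STAT count of 5 was 3 without library 1, 2 or 6 of 26 weeks. Il17ra lies at chr6:120463247-120487559 and Jak1 at chr4:101152367-101265282. For the cytokine receptors the counts were 0 higher and 1 lower with the length correction, and 0 and 1 without libraries 1 and 5 of 26 weeks. For JAK-STAT genes the counts were 0 higher and 2 lower with the length correction, and 0 and 1 without libraries 1 and 5 of 26 weeks. The calls of Il2rg, Jak2, Stat6 and Stat3 were lost without libraries 1 and 5 of 26 weeks (adjusted p from 0.0502 to 0.125), and the calls of Il2rg, Jak1 and Stat3 were lost with the length correction (adjusted p from 0.0878 to 0.189).

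Genes induced by type I interferon did not move as 1 group. Of 45 tested 5 rose and 6 fell, with a median of -0.21. The membrane-bound antiviral genes Ifitm2 and Ifitm3 were higher: Ifitm2 was measured at 208, 254 and 343 CPM at 14 weeks and 298, 787 and 1061 CPM at 26 weeks (1.48 ± 0.25, adjusted p = 0.00155) and Ifitm3 was measured at 329.7, 408 and 583 CPM at 14 weeks and 355, 794 and 1388 CPM at 26 weeks (0.96 ± 0.25, adjusted p = 0.0198), a call lost without library 4 of 14 weeks or library 1 or 5 of 26 weeks (adjusted p from 0.0501 to 0.0589). The nucleic acid enzymes Ddx60, Cmpk2 and Oas3 were lower. Ddx60 was measured at 74.8, 156 and 196 CPM at 14 weeks and 33.1, 61.4 and 76.1 CPM at 26 weeks (-1.3 ± 0.25, adjusted p = 0.0037). Cmpk2 was measured at 178, 229 and 304 CPM at 14 weeks and 71, 113 and 160.3 CPM at 26 weeks (-1.10 ± 0.22, adjusted p = 0.00399). Oas3 was measured at 147, 279.9 and 308 CPM at 14 weeks and 57.1, 121 and 143 CPM at 26 weeks (-1.20 ± 0.29, adjusted p = 0.0107). Cmpk2 and Oas3 had no overlap between the ages, and Ddx60 had overlap. The 5 higher genes had a median length of 678 bases and the 6 lower genes 6248 bases. Isg15, a ubiquitin-like product of the response, was not called, at 14, 25.4 and 34.9 CPM at 14 weeks and 14.1, 39.2 and 46.8 CPM at 26 weeks (0.54 ± 0.27, adjusted p = 0.238), nor was Irf7, its regulator, at 54.9, 95.5 and 119 CPM at 14 weeks and 40.2, 78.5 and 118 CPM at 26 weeks (-0.21 ± 0.25, adjusted p = 0.696). Tnfsf13b, the B cell survival factor BAFF, was at 67.5, 71.6 and 80.7 CPM at 14 weeks and 53.5, 70.7 and 81.6 CPM at 26 weeks (-0.04 ± 0.16, adjusted p = 0.923). The 5 higher genes were 1 to 3 without library 2, 3, 4, 5 or 6 of 14 weeks or library 1, 5 or 6 of 26 weeks. For the interferon list the counts were 1 higher and 5 lower with the length correction, and 1 and 2 without libraries 1 and 5 of 26 weeks. The calls of Ifitm3 and Oas3 were lost without libraries 1 and 5 of 26 weeks (adjusted p from 0.0936 to 0.248), and the calls of Ifitm3, Ddx60 and Oas3 were lost with the length correction (adjusted p from 0.0726 to 0.369).

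Among genes that carry signals from receptors, calls were only in the lower direction. Of 41 kinases and phosphatases of receptor signalling 16 fell and 0 rose, with a median of -0.59, and 13 of the 41 had no overlap (3.86% of all tested genes lay wholly below). Their summed level was 12019 to 14240.0 CPM at 14 weeks and 7837 to 11409 CPM at 26 weeks, without overlap. Pik3cg, the kinase that links G protein-coupled receptors to migration, was measured at 292, 332 and 361 CPM at 14 weeks and 85.2, 115 and 225 CPM at 26 weeks (-1.3 ± 0.22, adjusted p = 0.00155). Inpp5d, the phosphatase SHIP1 that opposes it, was measured at 177, 241 and 270.0 CPM at 14 weeks and 55.7, 103 and 130.0 CPM at 26 weeks (-1.21 ± 0.20, adjusted p = 0.00162). Map2k3, a kinase upstream of p38, was measured at 229.5, 277 and 334 CPM at 14 weeks and 149, 181 and 199 CPM at 26 weeks (-0.66 ± 0.11, adjusted p = 0.00201). In all 3 the ages did not overlap, and the lipid kinase and the opposing phosphatase both fell. With the length correction 9 of the 41 were lower, without libraries 1 and 5 there were 5, and without library 4 of 26 weeks 25. Pik3cg lies at chr12:32173473-32208659 and Inpp5d at chr1:87620312-87720507. The calls of Pik3cg, Inpp5d and Map2k3 were kept without libraries 1 and 5 and with the length correction.

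The actin cytoskeleton divided, with 8 of 41 genes higher and 9 lower (median -0.22). Tagln2, a small actin-binding protein, was measured at 34.5, 50.4 and 87.8 CPM at 14 weeks and 156, 313 and 546 CPM at 26 weeks (2.63 ± 0.35, adjusted p = 0.000964). Myl12a, a regulatory light chain of myosin, was measured at 438, 489 and 505 CPM at 14 weeks and 459, 772 and 1015 CPM at 26 weeks (0.65 ± 0.15, adjusted p = 0.0102). Cfl1, the filament-severing protein cofilin, was measured at 1631, 1660.3 and 1823 CPM at 14 weeks and 1772, 2463 and 3264 CPM at 26 weeks (0.52 ± 0.12, adjusted p = 0.0111). Tagln2 had no overlap and the other two did. Lcp1, the leukocyte bundling protein L-plastin, was measured at 8079, 10532 and 11674 CPM at 14 weeks and 3392, 3841 and 7692 CPM at 26 weeks (-1.14 ± 0.19, adjusted p = 0.0017). Actn1, the cross-linker alpha-actinin, was measured at 1268, 1612 and 1697 CPM at 14 weeks and 391, 596 and 999.8 CPM at 26 weeks (-1.31 ± 0.22, adjusted p = 0.00185). Tpm4, a tropomyosin that coats filaments, was measured at 523, 702 and 757 CPM at 14 weeks and 261, 378 and 438 CPM at 26 weeks (-0.89 ± 0.15, adjusted p = 0.00182). These 3 genes fell without overlap. The 8 higher genes had a median length of 2584 bases and the 9 lower ones 5204 bases. The counts were 1 higher and 6 lower with the length correction, and 1 and 4 without libraries 1 and 5. Leaving out 1 library, the lower count was 5 to 15 without library 1, 4 or 6 of 26 weeks and the higher count 5 without library 3, 4 or 5 of 14 weeks or library 1 of 26 weeks. Tagln2 lies at chr1:172500047-172507380 and Lcp1 at chr14:75131101-75230842. The calls of Myl12a and Cfl1 were lost without libraries 1 and 5 of 26 weeks (adjusted p from 0.0794 to 0.0999), and those were also lost with the length correction (adjusted p from 0.166 to 0.556).

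Of 23 genes of glycolysis and glucose uptake 1 rose and 6 fell (median -0.30), against 5.45% and 5.54% of all tested genes. Slc2a3, a glucose transporter, was measured at 1319.6, 1479 and 1753 CPM at 14 weeks and 481, 528 and 1149 CPM at 26 weeks (-1.23 ± 0.18, adjusted p = 0.00105), without overlap, and library 4 of 26 weeks (1149 CPM) stood above its own group. Pkm, the pyruvate kinase, was measured at 3568, 3852 and 4599 CPM at 14 weeks and 1421, 2537 and 3468 CPM at 26 weeks (-0.67 ± 0.16, adjusted p = 0.0101), without overlap. Tpi1, the isomerase of triose phosphates, was measured at 80.4, 93 and 116 CPM at 14 weeks and 121, 143 and 212 CPM at 26 weeks (0.65 ± 0.19, adjusted p = 0.0293), a call lost without library 2, 3, 4 or 5 of 14 weeks or library 1, 2 or 6 of 26 weeks (adjusted p from 0.0544 to 0.0871). Gapdh, which follows it in the pathway, was not called, at 1226, 1358 and 1676 CPM at 14 weeks and 1334, 1798 and 2351 CPM at 26 weeks (0.33 ± 0.14, adjusted p = 0.148). The lower count of 6 was 2 to 3 without library 1 or 5 of 14 weeks or library 1, 2, 5 or 6 of 26 weeks. For glycolysis the counts were 0 higher and 2 lower with the length correction, and 0 and 1 without libraries 1 and 5 of 26 weeks. The calls of Pkm and Tpi1 were lost without libraries 1 and 5 of 26 weeks (adjusted p from 0.0644 to 0.144), and those were also lost with the length correction (adjusted p from 0.0681 to 0.163).

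Antioxidant enzymes had 6 of 23 higher and 1 lower. Txn1, the cytosolic thioredoxin, was measured at 129.9, 165 and 221 CPM at 14 weeks and 190.5, 413 and 857 CPM at 26 weeks (1.43 ± 0.27, adjusted p = 0.00315). Gpx1, a glutathione peroxidase, was measured at 1764, 1899 and 2083 CPM at 14 weeks and 1819, 3346 and 4693 CPM at 26 weeks (0.82 ± 0.18, adjusted p = 0.00634). Sod2, the superoxide dismutase of mitochondria, was measured at 9.88, 13.5 and 18.8 CPM at 14 weeks and 21.4, 30.7 and 52.7 CPM at 26 weeks (1.17 ± 0.27, adjusted p = 0.00944), alone of these 3 without overlap. Gsr, which regenerates glutathione, was the 1 that fell: it was measured at 1990.3, 2474 and 2621 CPM at 14 weeks and 1359, 1731 and 2224 CPM at 26 weeks (-0.46 ± 0.13, adjusted p = 0.0275), a call lost without library 1, 2, 3, 4 or 5 of 14 weeks or library 1, 2, 5 or 6 of 26 weeks (adjusted p from 0.0519 to 0.0833). For antioxidant enzymes the counts were 2 higher and 0 lower with the length correction, and 2 and 0 without libraries 1 and 5 of 26 weeks. The calls of Gpx1 and Gsr were lost without libraries 1 and 5 of 26 weeks (adjusted p from 0.0704 to 0.211), and the calls of Txn1, Gpx1 and Gsr were lost with the length correction (adjusted p from 0.0647 to 0.561). Leukotriene synthesis showed opposite calls for the 2 proteins that work as a pair. Alox5, the lipoxygenase, was measured at 837, 957 and 1043 CPM at 14 weeks and 306, 456 and 750.2 CPM at 26 weeks (-0.95 ± 0.18, adjusted p = 0.00329), without overlap. Alox5ap, the membrane protein that presents its substrate, was measured at 897, 1046 and 1182 CPM at 14 weeks and 1023, 1753 and 2601 CPM at 26 weeks (0.80 ± 0.18, adjusted p = 0.00774), with overlap. The call of Alox5ap was lost without libraries 1 and 5 of 26 weeks (adjusted p = 0.0852), and that was also lost with the length correction (adjusted p = 0.529).

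Of 30 autophagy genes 3 rose and 3 fell, and of 34 lysosome genes 3 rose and 3 fell, against 5.45% and 5.54% of all tested genes. Atg7, the enzyme that starts the lipid coupling of autophagy, was measured at 309.9, 358 and 387 CPM at 14 weeks and 156, 219.8 and 237 CPM at 26 weeks (-0.72 ± 0.12, adjusted p = 0.00182), without overlap. Gabarap, the small protein that is coupled, was measured at 655, 791 and 951 CPM at 14 weeks and 754, 1385 and 1948 CPM at 26 weeks (0.85 ± 0.20, adjusted p = 0.0093), with overlap. Ctse, an aspartic protease, was measured at 622, 731 and 871 CPM at 14 weeks and 368, 464 and 538 CPM at 26 weeks (-0.71 ± 0.12, adjusted p = 0.00155), and Cd63, a tetraspanin of lysosome and granule membranes, was measured at 331, 379 and 424 CPM at 14 weeks and 434, 703 and 948 CPM at 26 weeks (0.84 ± 0.18, adjusted p = 0.00542), both without overlap. Atp6v0e, a subunit of the proton pump, was measured at 228, 253 and 284 CPM at 14 weeks and 256, 533 and 899 CPM at 26 weeks (1.18 ± 0.22, adjusted p = 0.00329), with overlap. The count of 3 lower autophagy genes was 1 without library 1 or 6 of 26 weeks. For autophagy genes the counts were 0 higher and 2 lower with the length correction, and 0 and 1 without libraries 1 and 5 of 26 weeks. For lysosome genes the counts were 0 higher and 3 lower with the length correction, and 0 and 1 without libraries 1 and 5 of 26 weeks. The calls of Gabarap and Cd63 were lost without libraries 1 and 5 of 26 weeks (adjusted p from 0.0604 to 0.104), and the calls of Atg7, Gabarap and Cd63 were lost with the length correction (adjusted p from 0.0823 to 0.432).

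Of 40 cell cycle genes 11 rose and 0 fell, with a median of 1.63, though most were at low levels. H2afz, a replication-independent histone variant, was measured at 105, 119.8 and 165 CPM at 14 weeks and 177, 319.9 and 418 CPM at 26 weeks (1.26 ± 0.21, adjusted p = 0.00154). Tuba1b, an alpha tubulin, was measured at 0.936, 1.51 and 5.45 CPM at 14 weeks and 7.96, 10.8 and 17.6 CPM at 26 weeks (2.52 ± 0.49, adjusted p = 0.0037). Both were without overlap, and library 6 of 14 weeks (5.45 CPM) stood nearest to the older mice for Tuba1b. Cks2, a cofactor of cyclin-dependent kinases, was measured at 5.66, 8.45 and 11.3 CPM at 14 weeks and 8.81, 22.7 and 46.7 CPM at 26 weeks (1.53 ± 0.35, adjusted p = 0.00872), with overlap. Mki67, the proliferation marker, was not called (0.92 ± 1.11, adjusted p = 0.714 by edgeR). The count of 11 was 6 to 7 without library 1, 4 or 5 of 14 weeks or library 1 or 5 of 26 weeks and 3 both with the length correction and without libraries 1 and 5. The call of Cks2 was lost without libraries 1 and 5 of 26 weeks (adjusted p = 0.0948), and that was also lost with the length correction (adjusted p = 0.0889). Transcription factors of neutrophil formation had 2 of 33 higher and 2 lower, against 5.45% and 5.54% of all tested genes. The higher count was 0 to 1 without library 1, 4, 5 or 6 of 14 weeks or library 1, 2 or 5 of 26 weeks, and the lower count 1 without library 1 of 26 weeks. For these factors the counts were 0 higher and 0 lower with the length correction, and 0 and 0 without libraries 1 and 5 of 26 weeks. Ikzf1, the lymphoid and myeloid regulator Ikaros, was measured at 408, 429 and 523 CPM at 14 weeks and 180.5, 242 and 437 CPM at 26 weeks (-0.75 ± 0.18, adjusted p = 0.0101), with library 4 of 26 weeks (437 CPM) inside the 14-week range. Nr4a1, an early response gene, was measured at 3.35, 11.7 and 19.4 CPM at 14 weeks and 22.3, 33.1 and 90.1 CPM at 26 weeks (2.09 ± 0.44, adjusted p = 0.00558), without overlap. Bax, which opens the outer mitochondrial membrane in apoptosis, was measured at 3.76, 4.86 and 6.92 CPM at 14 weeks and 6.94, 14.1 and 20.5 CPM at 26 weeks (1.42 ± 0.36, adjusted p = 0.014), without overlap. The calls of Ikzf1 and Bax were lost without libraries 1 and 5 of 26 weeks (adjusted p from 0.104 to 0.113), and those were also lost with the length correction (adjusted p from 0.169 to 0.187).

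Genes with the largest rises and falls were ranked only where a called gene averaged 4 or more on the log2 CPM scale, so rises of scarcer genes such as Jchain are not in that ranking. Rn18s-rs5, a copy related to the 18S ribosomal RNA, was measured at 23.6, 29.1 and 56.2 CPM at 14 weeks and 134, 732 and 3162 CPM at 26 weeks (4.94 ± 0.72, adjusted p = 0.000983). Lars2, the mitochondrial leucyl-tRNA synthetase, was measured at 139, 183 and 258 CPM at 14 weeks and 313, 1691 and 7259 CPM at 26 weeks (3.74 ± 0.59, adjusted p = 0.00151). In both the ages did not overlap. Both rows ranked the 26-week libraries alike, from library 5 (highest) through 1, 6, 2 and 3 to library 4 (lowest). Whether the Lars2 row holds reads of ribosomal RNA was not tested, so its rise may not be that of the synthetase mRNA. Dad1, a subunit of the complex that attaches sugars to new proteins, was measured at 6.92, 9.82 and 11.7 CPM at 14 weeks and 17.7, 40.5 and 66.4 CPM at 26 weeks (2.12 ± 0.31, adjusted p = 0.000983). Tmem216, a transmembrane protein of the base of cilia, was measured at 20.2, 24.2 and 53.1 CPM at 14 weeks and 83.3, 118 and 199 CPM at 26 weeks (2.14 ± 0.40, adjusted p = 0.00269). These 2 genes also rose without overlap. At the other end, Nt5e, the ecto-enzyme CD73 that makes adenosine, was measured at 126, 177 and 214 CPM at 14 weeks and 21.4, 43.9 and 83.9 CPM at 26 weeks (-1.88 ± 0.44, adjusted p = 0.0101). Rin2, an exchange factor of Rab5, was measured at 91.4, 125 and 147 CPM at 14 weeks and 25.2, 39 and 57.5 CPM at 26 weeks (-1.63 ± 0.23, adjusted p = 0.000964). Both fell without overlap. Dhrs9, a retinol dehydrogenase, was measured at 409.8, 710.3 and 865 CPM at 14 weeks and 99.5, 182 and 466 CPM at 26 weeks (-1.63 ± 0.32, adjusted p = 0.00424), with overlap. Nt5e lies at chr9:88327197-88372092, Rin2 at chr2:145675215-145887616 and Lars2 at chr9:123366927-123462666. The calls of Nt5e and Dhrs9 were lost without libraries 1 and 5 of 26 weeks (adjusted p from 0.0525 to 0.092).

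Genes of the sort gate did not move in 1 direction, since Itgam fell and Ly6g, the neutrophil surface antigen, was measured at 909.7, 1285 and 1419 CPM at 14 weeks and 1312, 2919 and 4201 CPM at 26 weeks (1.18 ± 0.30, adjusted p = 0.0141). Ly6g overlapped between the ages, and with the length correction its adjusted p was 0.27, and 0.171 without libraries 1 and 5. Markers of other spleen cells were not level, and most of their lists were low. The basophil and mast cell list summed highest, to 2073 to 3001 CPM at 14 weeks and 889 to 2024 CPM at 26 weeks. This sum rests on few genes, since 3 of its 10 genes had 0 counts in all 12 libraries and only 3 had enough counts to test. It does not measure how many such cells were present. Of its 3 tested genes 1 was called lower and 0 higher, against 5.54% and 5.45% of all tested genes. Without libraries 1 and 5 of 26 weeks 0 were called lower. Of the plasma cell list, 3 of 3 tested genes (Jchain, Igkc and Xbp1) were called higher, and its 10 genes summed to between 128.5 and 186 CPM at 14 weeks and between 185 and 690 CPM at 26 weeks, most of it Xbp1 at 14 weeks. Jchain, which joins antibody units, was measured at 0, 0.0858 and 0.512 CPM at 14 weeks and 0, 19.9 and 67.4 CPM at 26 weeks (6.70 ± 1.55, adjusted p = 0.0092). The 14-week libraries held 14 counts of Jchain in all and the 26-week libraries 1353, and libraries 2 and 6 of 26 weeks had 0. Igkc, the kappa light chain, was measured at 0, 1.22 and 12.4 CPM at 14 weeks and 1.98, 48.7 and 412 CPM at 26 weeks (5.5 ± 1.66, adjusted p = 0.0379), a call lost without library 1, 2, 3, 4 or 5 of 14 weeks or library 1, 4 or 5 of 26 weeks (adjusted p from 0.0628 to 0.0884). The plasma cell count was 1 without library 1, 2, 3 or 5 of 14 weeks and 0 without libraries 1 and 5 of 26 weeks. The calls of Jchain and Igkc were lost without libraries 1 and 5 of 26 weeks (adjusted p from 0.0538 to 0.143), and the call of Igkc was lost with the length correction (adjusted p = 0.0738). Of the B cell markers edgeR, DESeq2 and limma-voom called 0 of 6 tested (0 at an unadjusted p under 0.05 by edgeR), and their sum was 62.8 to 208 CPM at 14 weeks and 89.6 to 299.6 CPM at 26 weeks.

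Erythroid genes were too few to test: the 11 in the table summed to 0 to 2.42 CPM at 14 weeks and to 0.227 to 281 CPM at 26 weeks, highest in library 6 (281 CPM) and library 5 (38.1 CPM). Monocyte and macrophage genes summed to 770.3 to 1014 CPM and 784 to 1620.2 CPM, with 1 of 5 called (Nr4a1, and 2 without library 3 or 4 of 26 weeks), and C1qa and C1qb had 0 counts in all 12 libraries. T cell genes summed to 117 to 161 CPM and 101 to 385 CPM. Of 5 tested, 0 were called by edgeR, DESeq2 or limma-voom (1 at an unadjusted p under 0.05 by edgeR), and no NK cell gene had enough counts. The part of these cells in the results above was not tested gene by gene. With the genes of other cell types left out of the fit, 1098 genes were called, 1064 of them among the 1111. That fit drops only the rows of those genes. It cannot show what such cells add to the counts of other genes.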

How the data were processed

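Messenger RNA of sorted splenic neutrophils was extracted from 1 mouse per library, made into libraries from 1 ng of cDNA with Nextera XT and read as 100-base single ends, per the labels' protocols. The values are whole-number counts per gene symbol, deposited by the authors as 1 table of 18 libraries and 17941 symbols. Trimmomatic 0.32, STAR 2.4.2a, HTSeq 0.6.1, DESeq, DESeq2 1.12.3 and GRCm38.p4 are named in the submitters' processing notes. The sources used here do not name the gene annotation or the strand option used in counting, so overlapping and antisense genes, and genes with near-identical copies, are uncertain.

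Genes were filtered with filterByExpr by age, scaled by TMM and tested with edgeR 4.0.16 (R 4.3.3) by a robust quasi-likelihood F test over 18 libraries and 3 ages, with the contrast of 26 over 14 weeks and Benjamini-Hochberg adjustment over the 10104 genes left. Calls are adjusted p under 0.05, and SE is the size of the log2 fold change divided by the square root of F. Lengths and coordinates come from GENCODE M21, where 16809 symbols matched directly and 451 through a RefSeq synonym. The text names genes from the 15 of largest change in each direction, counted over called genes that averaged 4 or more in log2 CPM and had 5 or 6 libraries of each age past the median of the other, and from the gene lists, up to 4 called members of a list, 2 in the other direction and 2 not called. Rps9, Tyrobp, Cfl1, Mki67 and the plasma cell genes Jchain and Igkc lie outside that rule and were chosen after their values were seen. Ly6g, Isg15, Irf7 and Tnfsf13b come only from a separate fixed set of single genes. Members and lists were chosen with earlier results of these data known. Alternatives were other scalings, filters, DESeq2 1.42.0, limma-voom (limma 3.58.1), only 2 ages, a replicate block, a library-total term, length and GC corrections (loess span 0.3) and leaving out libraries. The test was checked on simulated data. One gene list is not reported here.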

Additional observations from a re-analysis of the deposited data

Results flagged for a closer look

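Among 250 groups of 6 values (each gene with values in the text at each age, and 4 library measures), 20 held a library whose gap to its nearest neighbour was large against the whole range of the group, 12 at 14 weeks and 8 at 26 weeks. For normally distributed values chance alone gives this in about 1 in 20 groups. The groups here share the same 12 libraries, so their flags are not independent.

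At 26 weeks 7 of the 8 concern library 4, which stood above the other mice and nearer to the 14-week level. Its values were 596.1 CPM for Eif4g2, 456.1 CPM for Adam8, 369.8 CPM for Mmp25, 1822 CPM for Itgam, 1149 CPM for Slc2a3, 852.6 CPM for Padi4 and 437.3 CPM for Ikzf1. All 7 genes were called lower at 26 weeks. The remaining 1 was Atg7, lowest in library 1 at 155.8 CPM.

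At 14 weeks library 6 was highest for the precursor lectin gene Fcnb (65.61 CPM), for Orm1 (26.49 CPM), for Tuba1b (5.453 CPM) and for the light chain gene Igkc (12.38 CPM), and lowest for Oas3 (146.5 CPM) and Gsr (1990 CPM). Library 2 was lowest for Fpr2 (233.2 CPM) and Ly6g (909.7 CPM) and highest for Gpr35 (22.72 CPM). Library 4 was lowest for Myl12a (437.6 CPM). Library 1 was highest for Mmp8 (22777 CPM) and library 5 lowest for Psma4 (12.11 CPM).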

How the results depend on the processing

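The 1111 calls (551 higher, 560 lower) became 1808 with DESeq2 (1081 higher), 2633 with limma-voom (1327 and 1306) and 1710 from only the 2 ages (876 higher). They became 431 with the length correction (145 and 286), 736 with the GC correction (272 higher), and 192 without libraries 1 and 5 of 26 weeks (89 and 103), an alternative chosen after seeing the data. Shared calls kept their direction in each of these fits. With library total as a term 360 were higher, and with no filter on low counts 371 were lower. Leaving out 1 of the 12 libraries gave 652 to 1544 calls, 349 to 757 higher and 303 to 787 lower. Without library 3 of 20 weeks, also chosen after seeing the data, 762 were higher. The labels tie no replicate number to a shared animal, litter or day, so the numbers were not taken to pair mice. Same-numbered mice of the 2 ages correlated between -0.05 and 0.14. Still, 3 of the 6 libraries of each age correlated best with their own number, a hint from the data and not the design. The replicate block gave 946 calls (420 and 526), with the length correction 436 (101 and 335) and with the GC correction 721 (174 higher). Tnfsf13b, -0.04 in the report and not called, took the other sign with RLE factors (0.00446), upper quartile factors (0.0563), the stricter filter (0.0708), limma-voom (0.0257), the length correction (0.12, and 0.13 with the block) and, among the values from -0.0654 to 0.052 with 1 library left out, without library 3 of 26 weeks. Of the 115 called genes with values in the text, 0 reversed under the 29 alternatives and 71 lost their call under at least 1, and the cause was not tested. Library 5 of 26 weeks, with 5546624 counts, limits what can be said of low genes.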
